A study of Homo sapiens with 6 samples.

Results

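H3K4me3 islands called in Vc+ endothelial cells with no counterpart in Vc- cells were examined: 1158 of the 21311 H3K4me3 islands of the Vc+ library on chromosomes 1 to 22, in a series whose 4 lists hold 61321 islands there. A member had a deposited score of at least 6 and at least 2 kb between either edge and any H3K4me3 island of the Vc- library. The members were thus chosen by 2 measured H3K4me3 values, the score in Vc+ and the distance to the Vc- islands, which are given below as a description and are no finding. Vc+ cells were endothelial cells made from the established human embryonic stem cell line H1, labelled GATA2 positive and derived with Vc, spelled out as vitamin C in the title of the series. Vc- cells carry the same labels and were derived without it. The design text speaks of cells positive and negative for a GATA2 and eGFP reporter, while every sample title says GATA2 positive. Each mark had 1 library per condition, so no test between conditions was possible, and each difference below is one between single libraries. Sample titles and the names of the deposited files disagree on which list is Vc+ for all 4 lists. The titles were followed, and each direction below is reversed if the file names are the correct ones.

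H3K4me3 is laid down by SET1 and MLL enzymes at the starts of active genes and of poised genes, most strongly where CpG dinucleotides are dense. H3K27me3 is laid down by Polycomb repressive complex 2, and stretches with both marks, called bivalent, are known at developmental genes. Narrow, weak H3K4me3 also occurs at enhancers and inside genes. Such profiles come from pooled cells, so a mark on fewer cells and less of it per cell cannot be told apart.

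The promoters that the members covered differed widely in CpG content, as shown by 8 windows that lie wholly inside a member and hold 9 to 55 CpG. Sparser windows, with 5 CpG or fewer, were 16.4% of those inside members and are not printed. These are the first 6 genes by score of the member, and TAP1 and FCER1G, genes of antigen presentation and of blood cells that were picked after their values were seen. Each run is the RefSeq promoter window of assembly GRCh38.p14, 250 bases before to 50 after an annotated start, 5′ to 3′ on the gene's strand, with every CpG in capitals.
TCFL5, a basic helix-loop-helix factor, chr20:62861773-62862072, minus strand, 42 CpG: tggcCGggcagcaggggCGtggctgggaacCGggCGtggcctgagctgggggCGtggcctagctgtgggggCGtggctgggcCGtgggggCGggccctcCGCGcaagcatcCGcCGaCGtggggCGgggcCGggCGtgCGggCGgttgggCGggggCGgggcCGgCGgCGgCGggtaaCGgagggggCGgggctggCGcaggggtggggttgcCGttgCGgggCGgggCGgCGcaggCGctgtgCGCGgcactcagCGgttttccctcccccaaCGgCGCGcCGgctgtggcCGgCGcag
PRR35, chr16:560144-560443, plus strand, 55 CpG: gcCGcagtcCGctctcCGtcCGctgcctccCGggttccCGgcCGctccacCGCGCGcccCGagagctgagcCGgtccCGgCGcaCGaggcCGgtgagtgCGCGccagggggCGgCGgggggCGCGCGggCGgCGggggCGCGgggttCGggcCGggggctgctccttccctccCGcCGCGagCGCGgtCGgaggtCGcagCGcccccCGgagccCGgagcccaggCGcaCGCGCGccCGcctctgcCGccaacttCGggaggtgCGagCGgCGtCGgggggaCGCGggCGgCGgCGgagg
RHOH, chr4:40196781-40197080, plus strand, 9 CpG: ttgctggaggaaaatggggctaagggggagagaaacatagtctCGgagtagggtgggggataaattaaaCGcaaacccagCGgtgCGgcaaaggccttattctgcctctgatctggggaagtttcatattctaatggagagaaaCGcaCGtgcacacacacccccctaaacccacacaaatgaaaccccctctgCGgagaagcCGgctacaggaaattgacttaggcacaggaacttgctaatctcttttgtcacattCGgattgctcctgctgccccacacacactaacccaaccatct
PDE1C, a calmodulin-dependent phosphodiesterase, chr7:32428175-32428474, minus strand, 24 CpG: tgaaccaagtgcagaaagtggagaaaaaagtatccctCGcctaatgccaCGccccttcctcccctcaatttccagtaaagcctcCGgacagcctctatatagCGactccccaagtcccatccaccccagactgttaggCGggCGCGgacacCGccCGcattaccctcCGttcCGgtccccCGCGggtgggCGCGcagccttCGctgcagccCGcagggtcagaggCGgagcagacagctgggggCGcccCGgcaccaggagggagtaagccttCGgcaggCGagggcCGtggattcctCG
AHNAK2, a large scaffold protein, chr14:104978325-104978624, minus strand, 42 CpG: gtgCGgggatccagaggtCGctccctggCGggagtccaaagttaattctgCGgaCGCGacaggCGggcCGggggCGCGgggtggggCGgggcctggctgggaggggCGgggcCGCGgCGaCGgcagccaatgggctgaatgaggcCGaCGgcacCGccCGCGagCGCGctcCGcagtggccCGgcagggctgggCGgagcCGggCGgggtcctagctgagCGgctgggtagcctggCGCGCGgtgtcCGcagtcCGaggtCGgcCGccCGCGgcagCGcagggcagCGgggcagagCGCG
NRTN, the growth factor neurturin, chr19:5804817-5805116, plus strand, 38 CpG: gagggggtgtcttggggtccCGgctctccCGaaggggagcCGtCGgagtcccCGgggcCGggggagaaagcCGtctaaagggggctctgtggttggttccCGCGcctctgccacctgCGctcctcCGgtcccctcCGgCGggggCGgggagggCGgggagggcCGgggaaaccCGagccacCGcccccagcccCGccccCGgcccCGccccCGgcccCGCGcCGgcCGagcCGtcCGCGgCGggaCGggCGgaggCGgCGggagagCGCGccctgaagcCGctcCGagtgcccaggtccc
TAP1, a peptide transporter of class I antigen presentation, chr6:32853655-32853954, minus strand, 22 CpG: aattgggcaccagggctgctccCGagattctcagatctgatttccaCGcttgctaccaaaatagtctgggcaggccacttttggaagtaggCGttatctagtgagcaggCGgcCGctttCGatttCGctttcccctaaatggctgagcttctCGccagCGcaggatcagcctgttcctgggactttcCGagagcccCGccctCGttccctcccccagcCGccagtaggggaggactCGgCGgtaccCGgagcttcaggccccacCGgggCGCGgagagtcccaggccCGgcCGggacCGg
FCER1G, the shared gamma chain of Fc receptors, chr1:161215045-161215344, plus strand, 9 CpG: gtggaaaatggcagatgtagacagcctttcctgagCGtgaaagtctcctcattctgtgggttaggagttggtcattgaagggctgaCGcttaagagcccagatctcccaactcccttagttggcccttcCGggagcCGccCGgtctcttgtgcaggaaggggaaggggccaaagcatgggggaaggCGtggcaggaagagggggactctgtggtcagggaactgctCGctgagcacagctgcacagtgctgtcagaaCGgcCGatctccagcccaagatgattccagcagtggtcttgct

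The members were 5.83% of the 19862 Vc+ islands that scored at least 6. Of the others, 18396 overlapped a Vc- island and 308 had one nearer than 2 kb. The same rule turned round gave 1432 islands in Vc- alone, which serve below as a mirror set. The score was read as the −log10 false discovery rate of the island in its own list, and scores of the 2 libraries are not compared. Members were weak and narrow within their list, with a lowest, median and highest score of 6.07, 10.1 and 76.1. The islands in Vc- alone had 6.05, 11.1 and 68.1 in theirs. All other Vc+ islands of score 6 or more had a median of 85.6. A comparison set of 8266 Vc+ islands therefore holds those that overlap a Vc- island and score no higher than the highest member. It reaches the same highest score but has a median of 32.8, so it is not matched to the members within that range.

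**Figure D1:**
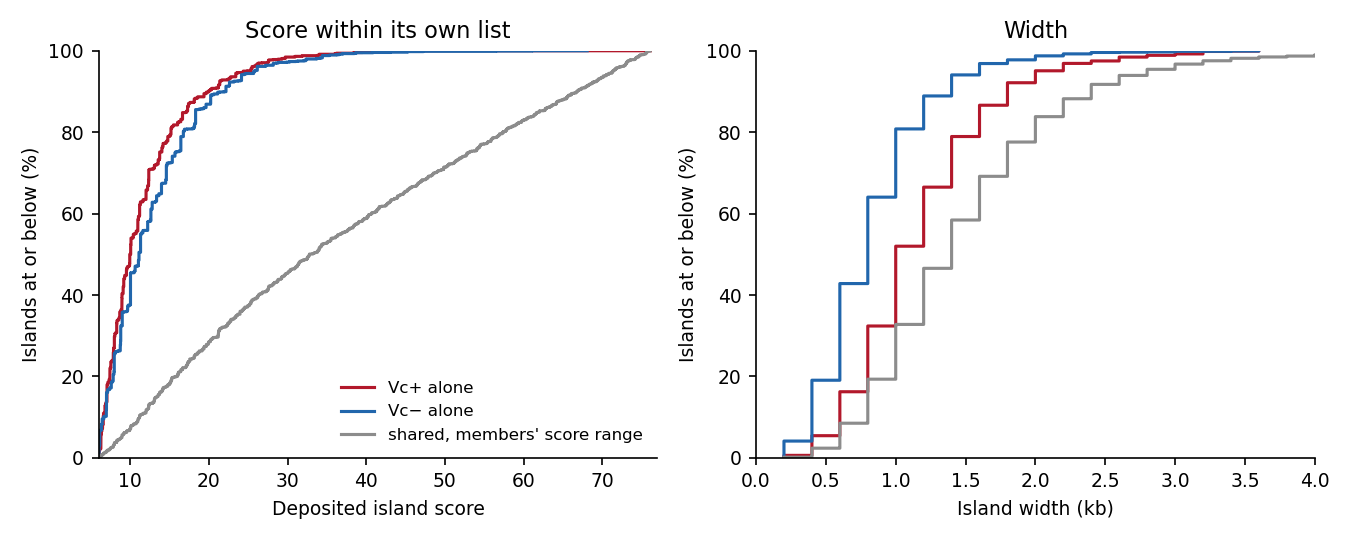
Cumulative share of islands (%) by deposited score (left) and by width in kb (right), for the members (Vc+ alone, red), the mirror set (Vc- alone, blue) and shared Vc+ islands of the members' score range (grey). The median width is 1 kb for members, 0.8 kb for islands in Vc- alone and 1.4 kb for the shared islands.

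Member widths ran from 0.2 to 3.6 kb with a median of 1 kb, against a median of 0.8 kb in Vc- alone, 1.4 kb in the shared set and 2 kb over all other Vc+ islands. The whole H3K4me3 lists differed the same way, with a median of 1.8 kb in Vc+ and 1.6 kb in Vc-. Just inside the score limit lay members near DYRK3 and SLC25A24, both with a score of 6.07, and just outside it lay islands near ZFP14 (5.99) and at TARDBP (5.94). Just inside the distance limit, with 2 kb to the nearest Vc- island, lay members near LOC124900476 (score 41.3) and ZIC5 (28.2). Just outside, at 1.8 kb, lay islands in DLX4 (33.8) and at GAL3ST4 (26.2). A Vc- island lay 2 to 10 kb away from 398 members (34.4%), and none lay within 10 kb of the other 760. The farthest member was 1349 kb from one. Another Vc+ island lay within 10 kb of 448 members (38.7%, exact 95% interval 35.9 to 41.6), a share close to the 39.0% of the shared set.

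Most members lay away from gene ends. With an island called at a gene end where it came within 1 kb of either end of a protein-coding gene, 197 members (17.0%, exact 95% interval 14.9 to 19.3) were at a gene end, 575 (49.7%, 46.7 to 52.6) inside a gene and 386 (33.3%, 30.6 to 36.1) in intergenic space. In Vc- alone these shares were 11.5%, 39.1% and 49.4%. In the shared set they were 42.9%, 26.3% and 30.8%, and over all other Vc+ islands 64.7%, 18.2% and 17.1%. Both sets of islands called in 1 condition thus held fewer gene ends than shared islands did. In these libraries members lay inside genes more often and between genes less often than islands in Vc- alone. The intervals count islands as if independent and do not measure the spread between libraries. The share at gene ends went with the score, and was 11.8% of members scoring 6 to 10, 16.4% of those scoring 10 to 20 and 45.7% of the 116 scoring 20 or more. The shared set had 14.3%, 24.9% and 51.1% in the same classes. Members thus stood closer to the shared set within score classes than over whole sets. The intervals overlapped at 6 to 10 and at 20 or more, and did not at 10 to 20.

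**Figure D2:**
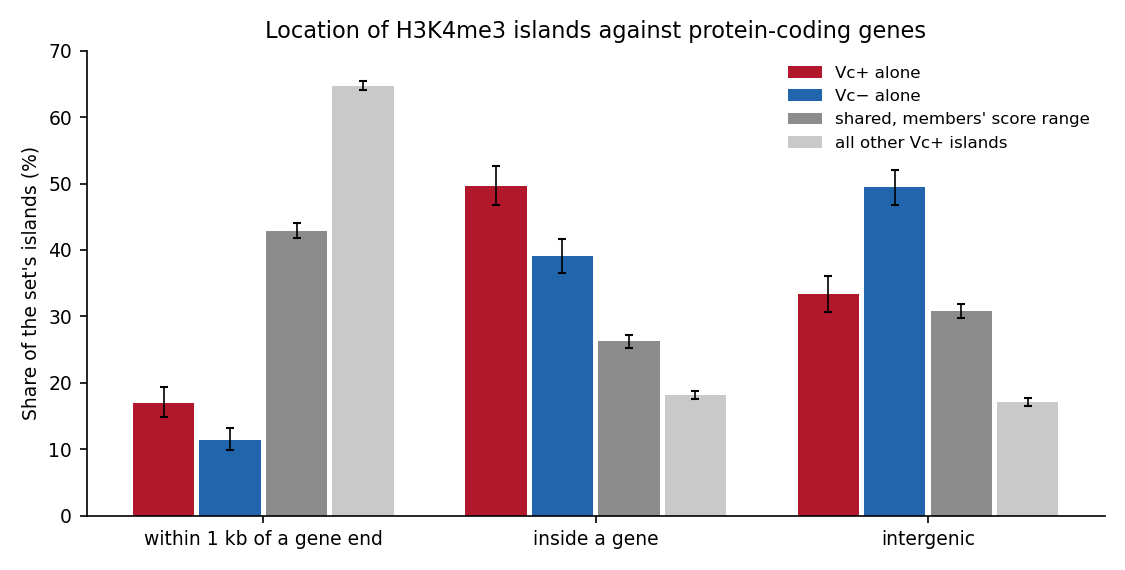
Share of each set's islands (%) within 1 kb of a gene end, inside a protein-coding gene and in intergenic space, with exact 95% binomial intervals (counting error only), for members (1158), islands in Vc- alone (1432), shared Vc+ islands of the members' score range (8266) and all other Vc+ islands (18704). Members have the largest share inside genes of the 4 sets, 49.7%.

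The promoter table gave strand for many of the genes, so gene ends could be told apart. Of the 197 members at a gene end, 114 (57.9%) lay at a 5′ end and 32 (16.2%) at a 3′ end alone, and for 51 the strand was not given. In Vc- alone the corresponding shares of 164 islands were 53.0% and 23.2%, and in the shared set 70.3% and 7.05%. Among all members on chromosomes with promoter windows, 196 of 1119 (17.5%) lay within 1 kb of an annotated start of a protein-coding or long non-coding RNA gene, counting starts inside genes. Vc- alone had 12.7% and the shared set 44.4%. These shares are lower limits, since windows matched 15100 of 19122 protein-coding genes.

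A total of 216 genes had a member at an end, 1.13% of 19122 protein-coding genes, and islands in Vc- alone touched the ends of 192 (1%). Of the 216 genes, 57 (26.4%) also had a Vc- H3K4me3 island at one of their ends. Of the 192, 67 (34.9%) also had a Vc+ one. Over all protein-coding genes 70.8% had a Vc- and 71.3% a Vc+ H3K4me3 island at an end. The rule bars islands of the other list within 2 kb of a member, so it lowers both shares, and they are no finding about the genes. The highest member of all stood at LRRC4B (chromosome 19, 50567001 to 50568400, score 76.1), a synaptic adhesion protein, just inside the 5′ end of the gene and with no H3K27me3 in either list. CAMK2B, a subunit of a calmodulin-dependent kinase, came next (chromosome 7, 44324801 to 44325600, score 45.2), with a member of 0.8 kb inside an H3K27me3 island of 5 kb in Vc+ and 5.40 kb in Vc-. A member of 2.20 kb covered the 5′ end of TCFL5 (41.6), whose promoter printed above lies inside it, and no H3K27me3 was called there. MANEAL (39.6) and PRR35 (38.4) each carried theirs at a 5′ end inside H3K27me3 of 5 and 4.60 kb in Vc+ and 4.20 and 3.40 kb in Vc-. At DPP6, an accessory subunit of potassium channels (30.9), the member also lay inside H3K27me3 of both lists, and at PDE1C (34.0) it overlapped a Vc+ H3K27me3 island in part and lay inside the Vc- one.

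At the alpha-globin gene HBA2 (chromosome 16, 172876 to 173710) a member of 1 kb scored 36.2, inside an H3K27me3 island of 19.4 kb in Vc+ and 28.2 kb in Vc-. HBA2 has a near-identical neighbour, so how reads were split between the copies is uncertain, and a Vc- H3K4me3 island lay 2.80 kb away. AHNAK2 (34.0) had H3K27me3 in the Vc- list alone, as an island of 2 kb. NRTN (33.8) and KLF11, a Krüppel-like factor (29.7), had none in either. At IRX4, a homeobox gene of the heart ventricle (31.9), the member lay at the 3′ end, inside H3K27me3 of 18.2 kb in Vc+ and 18 kb in Vc-. Of these 12 highest members at gene ends, only HBA2 and IRX4 had a Vc- H3K4me3 island nearer than 5 kb, and the one at DPP6 was the farthest from one, at 137 kb.

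Inside genes, 524 protein-coding genes that had no member at an end (2.74%) were overlapped by one, against 538 (2.81%) counted the same way for Vc- alone. Their median length was 85.8 kb for members and 91.8 kb for Vc- alone, against 24.5 kb over all protein-coding genes, so long genes were hosts in both. The highest members here lay in CPLX2, a synaptic vesicle fusion protein (44.0), where MACROD1 and FLRT1 overlap (36.1), and in RHOH, a small GTPase of blood cells (36.0). The RHOH member (chromosome 4, 40196401 to 40200000) was the widest of all at 3.6 kb. It covered an annotated start inside the gene, whose promoter is printed above, with the nearest Vc- H3K4me3 island 117 kb away and no H3K27me3. The next widest lay inside TNFRSF1B, a receptor for tumour necrosis factor (3.40 kb, score 12.8), followed by several of 3.20 kb, of which the one at the 3′ end of KRABD2 scored highest (23.6). WNT10A, a WNT ligand (34.0), RAX, a homeobox gene of the eye (27.6), and ONECUT3, a cut homeobox factor (27.6), held members inside H3K27me3 islands of 47, 17 and 34.8 kb in Vc+ and 38, 16.6 and 11.6 kb in Vc-. RAP1GAP (29.7), a regulator of Rap1, had H3K27me3 in both lists, and OSBP2 (29.7), an oxysterol-binding protein, had it in Vc+ alone.

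Members recurred within some genes. Counting also genes with a member at an end, and leaving out islands at the end of another gene, 470 genes held 1, 51 held 2 and 6 held 3. The 6 with most, named after their values were seen, were ACTN4, which encodes an actin crosslinker, LRRFIP1, MAML3, a Notch coactivator, PTPRE, a tyrosine phosphatase, RERE, and SEPTIN9, which encodes a cytoskeletal septin. Their spans ran from 83.9 kb at ACTN4 to 465 kb at RERE.

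Intergenic members had a median distance of 26.0 kb to the nearest end of a protein-coding gene, against 40.1 kb in Vc- alone and 22.9 kb in the shared set. Of the 386, 115 (29.8%) lay within 10 kb of a gene end and 97 (25.1%) more than 100 kb away, and 19.1% and 33.3% of the 708 in Vc- alone did. The highest lay 2.48 kb from LOC124900476 (41.3) and 8.21 kb from TLX1, a homeobox gene (38.4). The member near TLX1 lay inside H3K27me3 of 40.8 kb in Vc+ and 36.2 kb in Vc-. Those near TBC1D16, a regulator of Rab proteins (31.9), and ZNF322, a zinc finger gene (29.3), also overlapped H3K27me3 in both lists. Members 21.2 kb from EIF4EBP1, a repressor of translation (30.9), and 3.90 kb from KDELR3, a retrieval receptor (29.7), overlapped it in neither.

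H3K27me3, which the rule did not use, overlapped 253 members (21.8%, exact 95% interval 19.5 to 24.3) in the Vc+ list and 238 (20.6%) in the Vc- list. Both lists covered 212 members (18.3%), the Vc+ list alone 41 (3.54%), the Vc- list alone 26 (2.25%) and neither 879 (75.9%). H3K27me3 at members was thus mostly called in both conditions. Islands in Vc- alone overlapped H3K27me3 less often, with 10.8% (9.26 to 12.5) in the Vc+ list and 10.1% (8.55 to 11.7) in the Vc- list. Shared islands of the members' score range did so more often, with 34.6% and 32.6%, and all other Vc+ islands had 24.0% and 22.3%. The shared set has higher scores, and by score class it stood clearly above the members only at 6 to 10, as given below. The Vc+ H3K27me3 list covered 51.1 Mb and the Vc- list 40.2 Mb. The part of this length in the difference between the lists was not tested. The members' share stood above that of islands in Vc- alone with either list.

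**Figure D3:**
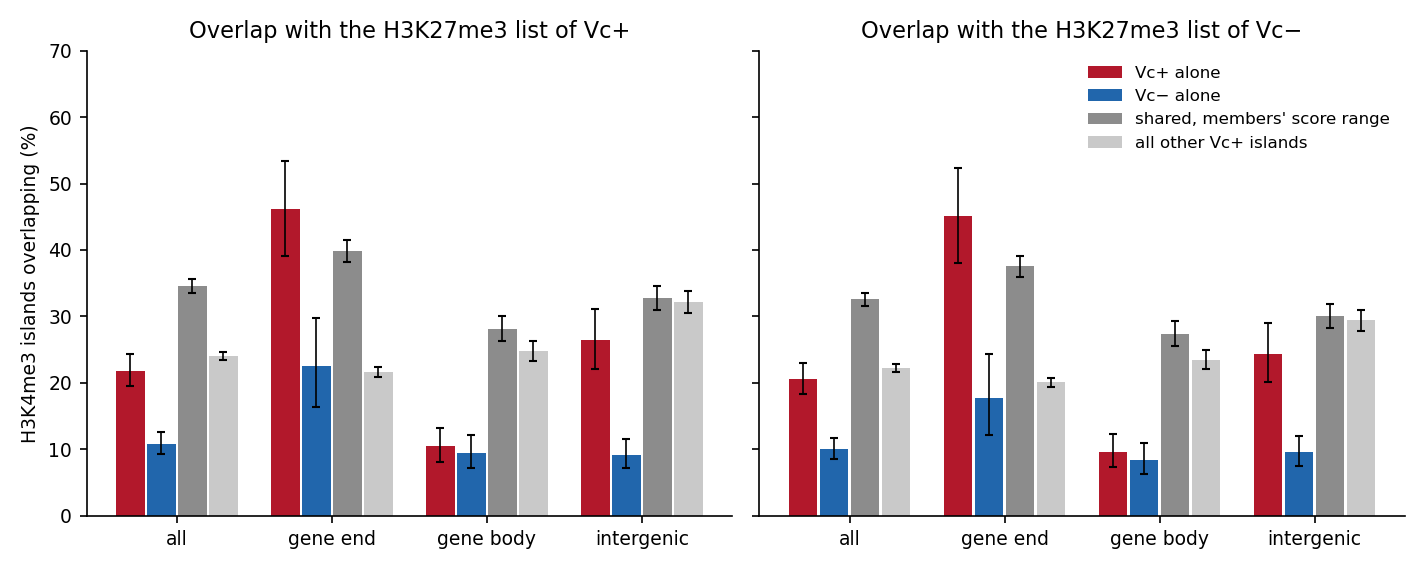
Share of H3K4me3 islands (%) that overlap an H3K27me3 island by at least 1 bp in the Vc+ list (left) and the Vc- list (right), over all islands and by location, with exact 95% binomial intervals. At gene ends 46.2% of members and 22.6% of islands in Vc- alone overlap the Vc+ list, while inside genes both sets stand near 10% (10.4% and 9.46%).

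Of the 253 members in Vc+ H3K27me3, 91 lay at gene ends, 60 inside genes and 102 between genes, and the members' share stood above that of Vc- alone at gene ends and between genes. At gene ends 91 of 197 members (46.2%, 39.1 to 53.4) overlapped Vc+ H3K27me3, against 22.6% (16.4 to 29.7) of islands in Vc- alone, 39.9% of the shared set and 21.7% of all other Vc+ islands. With the Vc- list these shares were 45.2%, 17.7%, 37.5% and 20.1%. In intergenic space 26.4% (22.1 to 31.1) of members overlapped Vc+ H3K27me3, against 9.18% (7.16 to 11.6) in Vc- alone and 32.8% in the shared set. Inside genes the members stood at 10.4% (8.06 to 13.2) and Vc- alone at 9.46% (7.17 to 12.2), with intervals that overlap, below the 28.1% of the shared set. By gene, 103 of the 216 genes with a member at an end (47.7%) carried Vc+ H3K27me3 at one of their ends and 97 (44.9%) Vc- H3K27me3. Over all protein-coding genes the shares were 17.1% and 15.7%.

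Overlap with H3K27me3 went up with the score among members and not in the mirror set. Of members scoring 6 to 10, 12.3% (9.72 to 15.2) overlapped Vc+ H3K27me3, of those scoring 10 to 20, 27.6% (23.6 to 31.9), and of those scoring 20 or more, 46.6% (37.2 to 56.0). Islands in Vc- alone had 11.5%, 10.2% and 11.1% in the same classes, each read on its own list's scale. Shared islands had 22.8%, 27.7% and 37.8%. Members thus stood below the shared set in the lowest class, level with it in the next and above it in the highest. In the highest class 37.8% lies within the members' interval. The score classes of the 2 lists are not matched, so members and islands in Vc- alone are not compared class by class. By width, members up to 0.6 kb had 24.5% (18.5 to 31.3) and Vc- alone 10.4% (8.13 to 13.1). At 0.8 to 1 kb the shares were 25.4% and 8.82%, and above 1 kb the intervals of the 2 sets overlapped. Members with a Vc- H3K4me3 island 2 to 10 kb away overlapped Vc+ H3K27me3 more often, with 29.6%, than the 17.8% of those farther off. In Vc- alone these shares were 16.3% and 8.93%.

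**Figure D4:**
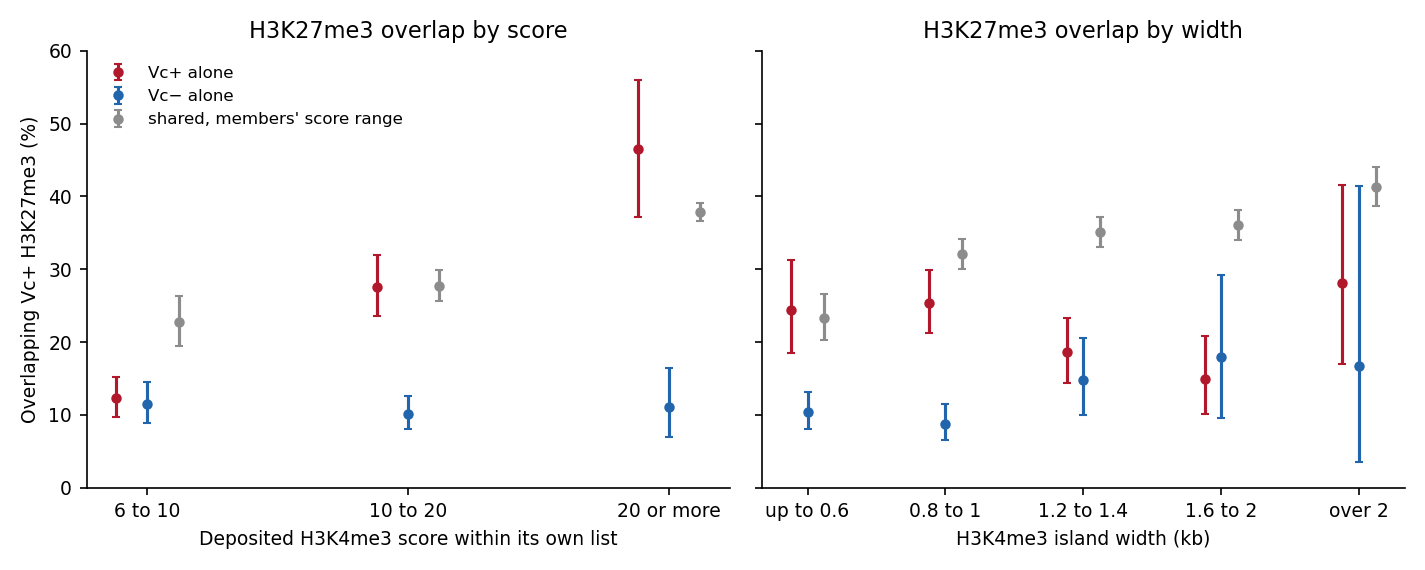
Share of H3K4me3 islands (%) overlapping Vc+ H3K27me3 by deposited score (left) and by width in kb (right), for members, islands in Vc- alone and shared Vc+ islands of the members' score range, with exact 95% binomial intervals. Members climb from 12.3% through 27.6% to 46.6% over the score classes, while islands in Vc- alone stay between 10.2% and 11.5%. Scores are on each list's own scale, so classes are not matched between the lists.

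Where H3K27me3 was called it usually enclosed the member. Of the 253 members in Vc+ H3K27me3, 227 (89.7%) lay wholly inside it, and of the 238 in the Vc- list 203 (85.3%) did. Most overlapping islands did so in the other sets too, with 83.2% and 77.1% in Vc- alone and 82.2% and 78.7% in the shared set. The H3K27me3 islands at members had a median of 6.60 kb in Vc+ and 5.80 kb in Vc-, and 97 members (38.3%) lay in a Vc+ one of at least 10 kb. For islands in Vc- alone the median was 4.40 kb, with 18.1% in one of at least 10 kb, and for the shared set 5.70 kb and 27.1%. The HOXC cluster, whose genes pattern the body axis, had most members in a single H3K27me3 island, with 6 in the 219 kb Vc+ island and 5 in the 153 kb Vc- island (chromosome 12, from 53922201 and 53916201). The islands at ZFP37 held 4 members each, over 52.2 kb in Vc+ and 50.4 kb in Vc-. At ONECUT3 4 lay in a Vc+ island of 34.8 kb that held no other Vc+ H3K4me3 island of score 6 or more, and at WNT6 and WNT10A 3 lay in islands of 47 kb in Vc+ and 38 kb in Vc-. No island in Vc- alone lay in any of these, but they were picked by their members, so nothing is read from that.

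H3K27me3 in 1 list alone was found at few members. Those in Vc+ H3K27me3 alone with the highest H3K4me3 scores lay in OSBP2 (29.7), in DHRS3, a retinal reductase (25.4), and at the 5′ end of TJP1, which encodes the junction protein ZO-1 (23.4). These were followed by CALB2, a calcium-binding protein (17.4), KDM6B (15.2), LOC107987020 (14.6), ATP6V1B1, a proton pump subunit (14.03), and VEPH1 (13.8). KDM6B encodes a demethylase of H3K27 in the family that the series title names. Its member lay inside the gene (chromosome 17, 7851601 to 7852400), 2.40 kb from its end and 2 kb from the nearest Vc- H3K4me3 island, within a Vc+ H3K27me3 island of 2.80 kb. The next Vc+ H3K4me3 island was only 0.4 kb away, and an annotated start of another gene, LOC107987244, lay at 0 kb. Among the highest in Vc- H3K27me3 alone were members at the 5′ ends of AHNAK2 (34.0), GALNT9 (27.6), DPF1, a chromatin remodelling subunit of neurons (27.5), and B3GNT3 (21.2), in TLE6 (17.3), and between genes 42.0 kb from GRM4 (21.6) and 356 kb from ROCK1 (19.4). Their H3K27me3 islands were 2 to 5.40 kb wide and scored from 4.42 (ROCK1) to 15.1 (AHNAK2) in the Vc- list. The H3K27me3 islands at the members named for Vc+ alone scored from 5.50 (VEPH1) to 41.9 (TJP1) in the Vc+ list. A weak H3K27me3 island missed in the other list cannot be told from an absent one.

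Members were also dense in some regions. A total of 25 regions of up to 500 kb held 4 or more, with 111 members in all, of which 47 overlapped Vc+ and 46 Vc- H3K27me3. They also held 11 islands in Vc- alone. Since the regions were picked by their members, that number cannot show whether such islands were few there. The most members, 7, lay at the HOXC cluster and ITGA5 and again from TCF3 to SCAMP4 around ONECUT3 (chromosome 19, 1672001 to 1930400), with 6 in H3K27me3 of each condition in both regions. Other Vc+ islands of score 6 or more numbered 19 and 9 there. All 4 members from TLX1 to LBX1, a pair of homeobox genes (chromosome 10, 101120201 to 101237800), and the 4 at WNT6, WNT10A and CFAP65 lay in H3K27me3 of both conditions. No member overlapped H3K27me3 in 6 regions, among them SEC14L1 and SEPTIN9 (5 members) and FMNL3, NCKAP5L and AQP5 (5). Chromosome 19 held 7 of the 25 regions. It held 9.07% of members, 7.12% of islands in Vc- alone and 7.08% of all other Vc+ islands. Per 100 Vc+ islands of score 6 or more it had 7.34 members, fewer than chromosomes 20 (7.81) and 22 (7.46).

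Lists of lineage genes were read next, beside the 1.13% of all protein-coding genes with a member at an end. They were drawn up with earlier results of these data known, so their counts are no independent evidence of a direction. As a check of the labels, all 10 endothelial markers had H3K4me3 at a gene end in Vc+, and 9 of 10 in Vc-. Over all protein-coding genes these shares were 71.3% and 70.8%. The exception in Vc- was VWF, whose end carries a weak member (9.49). Of 6 blood markers SPI1 alone had H3K4me3 in both conditions, as did LIN28A alone of 4 pluripotency markers. In both conditions 3 of 4 mural or mesenchymal and both epithelial markers had it too, as did 3 of 3 neural markers in Vc+ and 2 of 3 in Vc-. H3K27me3 was called at an end of each neural and epithelial marker in both lists, and of the endothelial markers at CDH5, ERG, VWF and GATA2 in Vc+ and at ERG and GATA2 in Vc-. The part of other cells in the results was not tested. Over the 91 genes of the blood regulator, blood cell, endothelial and arterial lists, 6 (6.59%) had a member at an end, a share close to the 19 of 285 (6.67%) over the genes of all lists. Counted as for all genes above (2.74%), 6 (6.59%) had one inside the gene alone. In Vc- alone 2 (2.20%) had an island at an end and 9 (9.89%) inside the gene, beside 1% and 2.81% of all genes.

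Among blood genes the members at ends lay at LAPTM5, a lysosomal protein of blood cells (chromosome 1, 30755801 to 30757800, score 20.4), FCER1G (7.42) and CBFA2T3, a corepressor (7.05). In Vc- alone such islands lay at NFE2, an erythroid factor, and TYROBP, an adaptor of immune receptors. Members inside genes lay in RUNX1, the master factor of blood emergence (chromosome 21, 34845401 to 34847000, 10.8), MECOM, a stem cell factor (8.29), and GFI1B, a repressor of erythroid cells (7.85), while Vc- alone had ERG, MEIS1 and VAV1. A member lay 2.67 kb from TAL1, a master factor of blood and vessels (10.97), and another 7.28 kb from CD34, a surface protein of progenitors (10.4). The nearest Vc- islands were 2 kb from the first, at the limit of the rule, and 3 kb from the second. At none of these was H3K27me3 called across the member in either list. Of these 8 members 4 scored under 10.

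Of 24 endothelial genes, VWF (von Willebrand factor) and KDR (the main VEGF receptor) had a member at an end. The VWF member of 2.20 kb lay across its higher-coordinate end (chromosome 12, 6123001 to 6125200, 9.49), with the nearest Vc- H3K4me3 island 65 kb away. At KDR it lay at the 3′ end and scored 6.07, at the limit. CDH5, the endothelial cadherin (12.02), FLT1, a VEGF receptor (17.3), and TEK, the angiopoietin receptor (8.96), held a member inside the gene, and a further one lay 2.03 kb beyond TEK (7.42). In Vc- alone ERG, ICAM2, KDR and VWF held an island inside the gene, so KDR and VWF had islands of either list alone at different places. Of 20 arterial and Notch genes NOTCH4 had a member, which lay at its 3′ end and at the 5′ end of GPSM3, a G-protein regulator of leukocytes (27.6), while HEYL, NOTCH1 and NRP1 held an island in Vc- alone inside the gene. Members also lay 43.9 kb from EGFL7, an endothelial secreted factor (16.7), and 4.70 kb from HES4, a Notch target (13.6). The nearest Vc- H3K4me3 island lay 2.4 kb from the member inside TEK and 2.8 kb from the one near HES4, little more than the rule asks. None of these endothelial and arterial members overlapped H3K27me3 in either list, although H3K27me3 was called at an end of VWF and of CDH5 in the Vc+ list and not in the Vc- list.

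Of 19 genes of synapse and neuronal signalling, 6 had a member at an end, namely CAMK2B, PDE1C, DPP6, EEF1A2, PCSK2 and GRIN1. The list had been drawn up with several of these known to differ. All 6 members, and a further one at the other end of EEF1A2, overlapped H3K27me3 in both lists. Inside the gene, GABBR2 and NRXN2 held members and DPP6 an island in Vc- alone. PCSK2, a prohormone convertase, scored 25.4, EEF1A2, a translation factor of neurons and muscle, 26.8 and 7.42, and GRIN1, a glutamate receptor subunit, 10.1. Of 20 genes of antigen presentation and interferon response, HLA-E (27.6), TAP1 and PSMB9 had a member at an end. The last 2 share 1 member of 0.8 kb across their facing 5′ ends (21.4). HLA-B and HLA-C had islands in Vc- alone, and HLA genes are alike enough that the placing of reads among them is uncertain. None of the 3 genes with members had H3K27me3 there.

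In the remaining lists the members at ends were LOXL4, a lysyl oxidase (26.0), among 22 mesenchymal genes, UTF1, a pluripotency factor (18.3), among 13, the lower-coordinate end of ONECUT3 (28.8) among 20 neural genes and CCL2, a chemokine (12.3), among 15 genes of endothelial inflammation and flow. The members at UTF1 and ONECUT3 overlapped H3K27me3 of both lists, and those at LOXL4 and CCL2 overlapped none. The venous, cardiac, chromatin modifier, vitamin C, TGF-beta and housekeeping lists had none at an end. Inside genes members lay in EGLN1 and PLOD2 among 12 genes of vitamin C handling, both hydroxylases that use it, and in SMAD6, SMAD7 and TGFB1 among 25 genes of TGF-beta, BMP and WNT signalling. TNFAIP3, an inhibitor of inflammatory signalling, and KDM6B also held one. Over all lists 15 of 285 genes (5.26%) did, beside 2.74% of all genes. In Vc- alone an island lay at an end of SIX3 and inside PAX6, both neural, and inside ZEB2 of the mesenchymal and MEF2C of the cardiac list.

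Promoters inside members were poorer in CpG than those inside shared or all other Vc+ islands, and close to those in Vc- alone. A total of 122 windows of 115 genes lay wholly inside a member, with a median of 19 CpG per 300 bases, against 20 in 95 windows of Vc- alone, 26 in the shared set, 28 over all other Vc+ islands and 14 over all 33725 windows. The sets are not matched for score, and the members' median was 24 at a score of at least 10. How much of the difference goes with the score was not tested. At least 10 CpG were held by 84 (68.9%, 59.8 to 76.9) of the members' windows, 76.8% of those in Vc- alone and 94.3% of those in other Vc+ islands. At most 5 were held by 20 (16.4%), 14.7% and 2.34%. The members' windows differed with H3K27me3. Those of members that overlapped it in either list had a median of 26 CpG (56 windows), like PRR35, PDE1C and AHNAK2 above with 55, 24 and 42, and those of the others a median of 9 (66 windows), the count found at RHOH and FCER1G. TCFL5, NRTN and TAP1, with 42, 38 and 22, show that CpG-rich windows were found without H3K27me3 too.

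**Figure D5:**
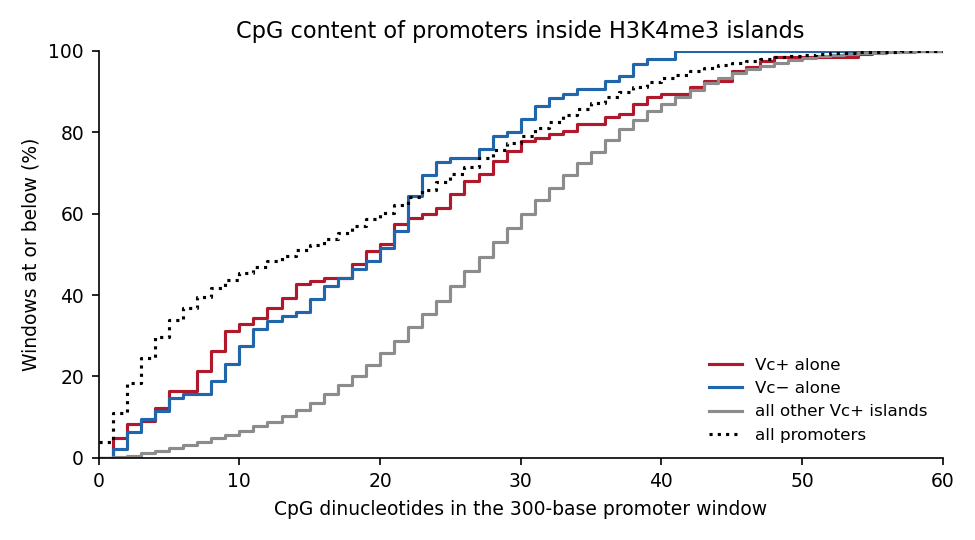
Cumulative share of 300-base promoter windows (%) by number of CpG dinucleotides, for windows wholly inside members, islands in Vc- alone and all other Vc+ islands, and for all windows of the table (dotted). The members' median is 19, that of Vc- alone 20, that of other Vc+ islands 28 and that of all windows 14.

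Letters of factor motifs were searched on both strands of the same windows, and no searched motif contains another. The letters known for GATA factors, AGATAA or as an alternative TGATAA, were in 9.84% of the members' windows, 12.6% of those in Vc- alone, 6.53% of those in other Vc+ islands and 16.3% of all windows. TGTGGT (RUNX) was in 9.02%, 11.6%, 8.13% and 13.1%, and CAGGAAGT (ETS) in 4.92%, 4.21%, 2.77% and 3.13%. TGANTCA (AP-1) was in 7.38%, 4.21%, 3.55% and 7.67%, CCAAT (NF-Y) in 29.5%, 36.8%, 32.9% and 34.4%, and CACGTG (E-box) in 7.38%, 7.37%, 9.43% and 7.18%. For each motif the interval of the 122 windows overlapped that of the 95 in Vc- alone. Of the windows printed above, TAP1 holds the GATA letters, NRTN and FCER1G those of RUNX, RHOH the E-box, and AHNAK2 and TAP1 CCAAT. These are letters in a window and are not read as bound sites.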

How the data were processed

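Chromatin immunoprecipitation and sequencing of H3K4me3 and H3K27me3 gave 4 island lists, 1 per mark and condition, grouped by sample titles. Inputs were not used here. The tools Bowtie2, SICER and deepTools, and hg38 or GRCh38 as the build, are listed per the submitters' processing notes without versions, settings or roles. The protocol in the labels names H3K27me3 antibodies only, while the antibody field names both marks. The deposited score was read as a −log10 false discovery rate because of its values (2.00 to 309, then 1000). Island widths are multiples of 200 bp. Read counts and depth are not given in the sources used here, so a weak island missed in Vc- cannot be told from an absent one. The 95% intervals (Clopper-Pearson, exact) reflect counting error alone. They treat islands as independent, though many lie close together, so their overlap or lack of it is no test between conditions.

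Coordinates are counted from 1. Genes (19122 protein-coding, chromosomes 1 to 22) and 33725 promoter windows are RefSeq's, assembly GRCh38.p14. Overlap meant 1 bp or more. The members, gene lists and naming rule (highest scores by location and H3K27me3 class, widest, listed genes, dense regions, threshold neighbours) were chosen with earlier results of these data known. Genes from outside it are said to be so, and a few items that it names are not reported here. The selection was tested on simulated islands, and bedtools 2.31.1 gave the same 1158 members. Python 3.11.15, numpy 2.4.6, pandas 2.3.3, scipy 1.17.1 and matplotlib 3.10.9 were used. Alternatives covered score and distance limits, gene-end windows, gene types and H3K27me3 overlap rules.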

Additional observations from a re-analysis of the deposited data

How the results depend on the processing

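No paired analysis was possible because each mark and condition had 1 library. Read depth is unknown, so what it limits could not be measured. Of 49 alternative values, 29 stayed within the counting interval of the reported one, or within 1.5 times a count, and 20 moved. The number of members was 580 at a score of at least 10, 2016 with no score limit and 760 with 10 kb to the nearest Vc- island, and genes with a member at an end were 140 at a score of at least 10. The share at gene ends was 20.5% with a 2 kb window, 23.4% with long non-coding RNA genes and 22.2% at a score of at least 10. With annotated starts of protein-coding genes in place of gene ends, starts inside genes included, it was 13.6%. That value covers 152 of the 1119 members on chromosomes with promoter windows. The share inside genes was 53.3% with long non-coding RNA genes and 45% at a score of at least 10. The intergenic share was 23.3% with long non-coding RNA genes and 30.6% once islands up to 5 Mb from each chromosome's widest gap between genes were left out, an alternative added after seeing the data. Overlap with Vc+ H3K27me3 was 31.4% at a score of at least 10, 17.8% at 10 kb and 25.1% for members up to 1 kb wide (added after seeing the data). With the Vc- list it was 31.9%, 16.3% and 24.4%, and 23.1% when an H3K27me3 island within 2 kb counted. The median promoter CpG was 24 at a score of at least 10, also added afterwards. With 10 kb to the other list, islands in Vc- alone overlapped Vc+ H3K27me3 at 8.93%, so the order of the 2 sets held there. At a score of at least 10 on their own list's scale they had 10.4%. The scores of the 2 lists are not matched, so no order is read from that cut. For the other moved values the cause was not tested.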
